A study of Mus musculus with 36 samples.

Results

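The genes described here are 10 genes of YAP/TAZ signalling in mouse keratinocytes, the epithelial cells of the epidermis: Yap1, Wwtr1, Tead1, Lats2, Amotl2, Ajuba, Ccn1, Ccn2, Ankrd1 and Axl. They were taken by gene name from the 55358 rows of the count table, and 9 of the 10 were among the 15114 genes with enough counts to be tested. Ankrd1 was not. WT, PKP4-KO and Rescue keratinocytes were cultured in LCM, a low calcium medium with 50 µM CaCl2, or in HCM, the same medium with 1.2 mM CaCl2 added, and RNA was sequenced at 24 h and at 72 h, which gave 12 groups of 3 libraries and 36 in all. WT cells carried the Pkp4-wildtype genotype and PKP4-KO cells the Pkp4-knockout genotype, in which exon 9 of the gene for the junction protein plakophilin 4 had been removed, and both came from newborn pups of intercrossed heterozygous mice on a C57BL/6J background. Rescue cells were knockout cells with GFP-PKP4, the human protein with an EGFP tag, which was brought in with a lentivirus and selected with puromycin.

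These groups limit what a difference can be read as. Since the WT and the knockout cells were isolated from different animals, the genotype and the origin of the cells cannot be told apart, and Rescue cells had gone through a viral infection and a drug selection that the labels give for neither of the other 2 genotypes. The submitters describe the 3 libraries of a group as biological replicates, but no source used here says that they came from separate isolations, so that p-values measure the spread between these libraries, which may be technical. The labels also mark the 24 h cultures LD and the 72 h cultures HD without saying what the letters stand for, and no cell number was used here, so that time in culture and cell density cannot be told apart.

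YAP and TAZ, the products of Yap1 and Wwtr1, are transcriptional coactivators that bind no DNA themselves and reach their target genes through TEAD factors such as TEAD1. In the Hippo pathway, the kinases LATS1 and LATS2 phosphorylate YAP and TAZ, which then stay in the cytoplasm, and proteins of adherens and tight junctions, angiomotins among them, hold YAP and TAZ back in dense epithelia. Spreading, stress fibers and tension act the opposite way, and Ccn1, Ccn2, Ankrd1, Axl and Amotl2 are among the target genes used most often as a reading of YAP/TAZ activity. The values below are RNA levels, which do not show where the proteins were or whether they were phosphorylated.

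The core of the TEAD recognition element, GGAATG, was searched on both strands in the 250 bases before the start of each gene in the promoter sequences of RefSeq for GRCm38.p6. Of the 10 genes, 8 had a promoter entry, and 7 of these held GGAATG or its reverse complement CATTCC: Yap1, Wwtr1, Amotl2, Ajuba, Ccn1, Ankrd1 and Axl. Of all 27025 genes with an entry, 14.4% did. Lats2 held neither in its 2 entries, and Ccn2 and Tead1 had no entry. The promoters of the 4 target genes with an entry (Ccn1, Axl, Ankrd1 and Amotl2) and of the junction-linked regulator Ajuba are shown, so that the place of each match can be seen, 5′ to 3′ along the gene, with the match in capitals.
Ccn1, chr3:145649986-145650235, reverse strand: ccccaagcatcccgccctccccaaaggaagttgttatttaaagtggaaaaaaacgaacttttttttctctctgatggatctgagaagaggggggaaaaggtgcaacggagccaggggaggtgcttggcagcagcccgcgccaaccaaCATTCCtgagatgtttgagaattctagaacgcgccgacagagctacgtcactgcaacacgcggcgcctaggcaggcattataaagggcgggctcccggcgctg
Axl, chr7:25788734-25788983, reverse strand: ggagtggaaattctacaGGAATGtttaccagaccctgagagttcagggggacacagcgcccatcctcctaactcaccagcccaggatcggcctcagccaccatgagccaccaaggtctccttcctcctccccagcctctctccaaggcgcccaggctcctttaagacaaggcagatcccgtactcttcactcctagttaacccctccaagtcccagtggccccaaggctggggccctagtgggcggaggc
Ankrd1, chr19:36119845-36120094, reverse strand: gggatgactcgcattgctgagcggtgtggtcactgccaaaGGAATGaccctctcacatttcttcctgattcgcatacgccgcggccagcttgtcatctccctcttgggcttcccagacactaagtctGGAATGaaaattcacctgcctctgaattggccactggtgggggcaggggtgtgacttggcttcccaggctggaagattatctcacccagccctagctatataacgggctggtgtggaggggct
Amotl2, chr9:102717554-102717803, forward strand: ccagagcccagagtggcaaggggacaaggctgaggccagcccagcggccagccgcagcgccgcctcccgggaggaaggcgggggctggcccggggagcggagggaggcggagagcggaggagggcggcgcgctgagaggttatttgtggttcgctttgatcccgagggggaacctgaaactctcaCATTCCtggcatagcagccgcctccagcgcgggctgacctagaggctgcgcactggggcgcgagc
Ajuba, chr14:54577662-54577911, reverse strand: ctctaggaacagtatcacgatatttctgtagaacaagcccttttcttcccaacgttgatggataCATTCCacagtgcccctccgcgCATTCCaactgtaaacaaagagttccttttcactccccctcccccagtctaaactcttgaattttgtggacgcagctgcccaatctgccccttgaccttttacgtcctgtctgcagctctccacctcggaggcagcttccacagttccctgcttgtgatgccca
In Ccn1 the match began 103 bases before the start, in Axl 233 and in Amotl2 65. Ajuba held 2 matches, 186 and 164 bases before the start, and Ankrd1 held 2, 210 and 123 bases before it. Of all 32851 entries, 1.02% held 2 or more. A match describes the letters of this window and not a bound site.

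The 10 genes are protein-coding and are scattered over 6 chromosomes of GRCm39, the build of the counts. The coactivator genes Yap1 (chr9:7932000-8004661) and Wwtr1 (chr3:57363067-57483331), the kinase gene Lats2 (chr14:57926960-57995845) and the adaptor gene Ajuba (chr14:54804787-54815027) lie on the reverse strand. So do the target genes Ccn1 (chr3:145352720-145355738), Ankrd1 (chr19:36089352-36097506) and Axl (chr7:25456535-25488329). Tead1 (chr7:112278522-112506014), Amotl2 (chr9:102593836-102610617) and Ccn2 (chr10:24471333-24474900) lie on the forward strand. Ccn2 and Ccn1 are short genes with spans of 3.6 and 3.0 kb, whereas Tead1 spans 227.5 kb.

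The libraries held between 13602728 and 22467187 counts. Pkp4 had 326 to 1443 counts in WT libraries, 44 to 232 in PKP4-KO libraries and 101 to 273 in Rescue libraries, and the GFP-PKP4 row had 1902 to 15325 in Rescue against at most 113 in the others, as the labels say. Levels are given as CPM, counts relative to the library size after scaling by TMM (edgeR's trimmed mean normalisation), and a floor of 3 counts corresponded to 0.11 to 0.44 CPM and covers counting error only. The TMM factors were 0.48 to 0.55 in PKP4-KO at 72 h HCM and 0.71 to 1.39 elsewhere, so that scaling raised the levels of these 3 libraries, and their values are the most dependent on it. At 72 h HCM the factors were 0.959, 0.98 and 0.705 in WT and 1.162, 1.186 and 1.159 in Rescue. Whether levels of the genes below follow a property of the whole library was not tested. Krt5 and Krt14, keratins of basal keratinocytes, had at least 7624 and 13960 CPM in every library, and all 11 keratinocyte markers were found. Krt1, a keratin of differentiating keratinocytes, ranged from 0.64 to 43.3 CPM in WT, and PKP4-KO libraries had 13.8 to 3841 while Rescue had 2.32 to 21.4. The other differentiation markers did not all move with it. Krt10 reached 603.7 CPM in WT and 4705 in PKP4-KO, whereas Ivl (involucrin) had medians of 46.9 and 11.8, with no overlap between the 12 libraries of each, and Lor (loricrin) 14.5 and 4.78. Krt15, a further basal keratin, had 6.3 to 145 CPM in WT and 328 to 2762 in PKP4-KO. The summed level of 8 fibroblast markers was 0.15 to 9.62 CPM in WT, while PKP4-KO had 0 to 4.65 and Rescue 0.22 to 11.6. Among other cell types, 5 melanocyte markers summed to at most 2.03 CPM and 4 endothelial markers to at most 5.41, while Ptprc, the marker of all leukocytes, had at most 4 counts and Tyr and Cd207 had none. Of the 5 leukocyte markers only Cd68 was above a few CPM, with 21.0 to 60.7 in WT, and PKP4-KO had 6.78 to 46.4 and Rescue 62.2 to 177.5. In bulk RNA, fewer cells with a transcript and less of it per cell cannot be told apart.

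Set against gene length (RPKM, the TMM-scaled CPM per kb of the gene length given in the table), Axl, a receptor tyrosine kinase, and Ajuba were the highest of the genes in WT, with medians of 43.1 and 37.3 RPKM over the 12 libraries. Ccn2, a secreted matricellular protein once known as CTGF, followed with 24.9 and Yap1 with 14.9. Amotl2 had 9.80, Ccn1 (CYR61), a relative of Ccn2, 4.66, Wwtr1 3.62 and Tead1 2.18 RPKM, and Lats2 had 0.61. The ranges of Axl, Ajuba and Ccn2 in WT overlapped (24.9 to 57.5, 21.9 to 51.3 and 9.52 to 55.1 RPKM), as did those of Ccn1, Wwtr1 and Tead1 (3.35 to 8.99, 2.63 to 5.89 and 0.91 to 3.72). Each gene overlapped its neighbours in this order except Tead1 and Lats2, which had 0.46 to 0.75 RPKM. In PKP4-KO the order changed, and Ajuba stood first with a median of 38.8 RPKM, above Axl with 13.4 and Yap1 with 11.9, while Ccn2 had 0.33. In Rescue, Ajuba (50.4 RPKM) and Axl (43.7) were again close and Ccn2 had 5.64. The plot of levels shows each library.

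**Figure D1:**
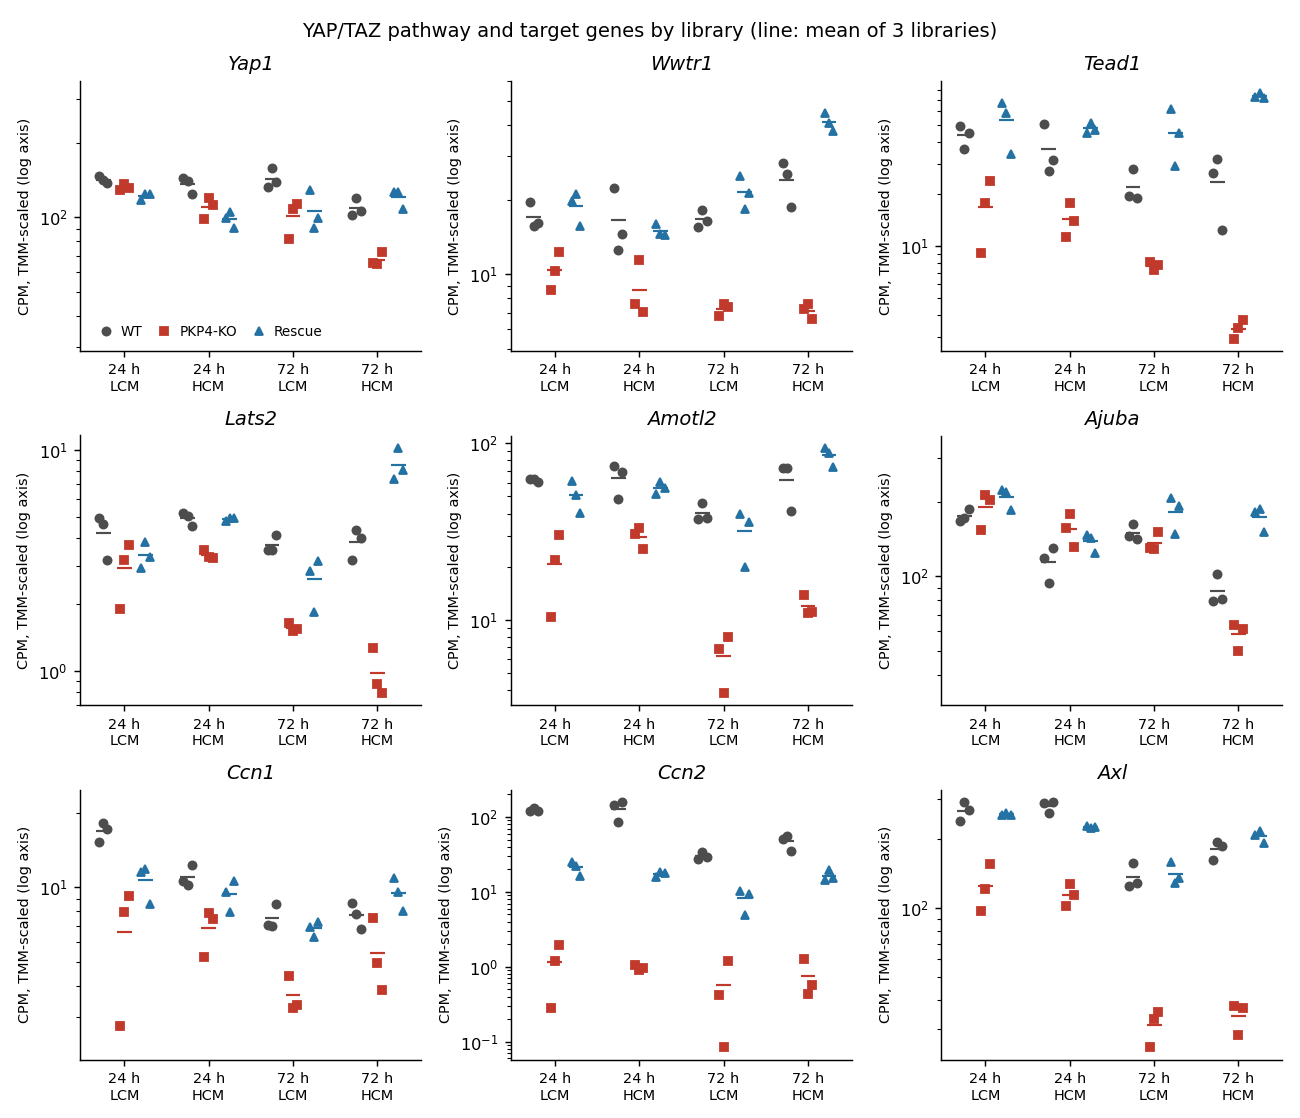
CPM with TMM scaling (log axis) of the 9 tested genes in each of the 36 libraries, by time and medium, with grey circles for WT, red squares for PKP4-KO, blue triangles for Rescue and a line at the mean of 3 libraries. Ccn2 stands above 27 CPM in every WT library and below 2 in every PKP4-KO library, whereas the Ajuba levels of the 3 genotypes lie much closer together.

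The comparison of PKP4-KO with WT asks what differs in these genes in cells without PKP4. Of the 9 tested genes, 5 were lower in PKP4-KO in all 4 culture conditions by the test below: Wwtr1, Tead1, Amotl2, Ccn2 and Axl. That held for 10.2% of all tested genes. Yap1, Lats2 and Ccn1 were lower in 3 of the 4, for which no share of all genes was taken. At 24 h HCM all 9 passed edgeR's quasi-likelihood test at an adjusted p below 0.05 (hereafter called), 8 lower and Ajuba higher, against 42.8% of all tested genes called and 22.2% lower, and after 72 h in this medium 8 were called, all lower, against 51.8% and 29.9%. In LCM, 6 were lower at 24 h, against 40.2% of all genes called and 20.6% lower, and 8 at 72 h, against 45.1% and 23.8%. The median log2 fold change of the 9 genes was -0.93 at 24 h and -1.97 at 72 h in HCM, and -1.09 and -1.24 in LCM, beside medians of all tested genes between -0.07 and 0.03. In 8 genes at 24 h HCM every PKP4-KO library was below every WT library, where 24.1% of all genes did so. The number of genes so separated was 8 at 72 h (30.9% of all genes), and in LCM it was 7 at 24 h (25.7%) and 8 at 72 h (28.7%). Without PKP4-KO replicate 1, 5 of the 9 genes at 24 h HCM were still called, and with library sizes in place of TMM factors also 5.

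Ccn2 had the largest fold changes of the 9 genes. In HCM its level was 144, 87.2 and 158 CPM in the WT libraries at 24 h, while PKP4-KO had 1.07, 0.9204 and 0.9603 and Rescue 15.99, 18.2 and 18.1. After 72 h in HCM it was 51.6, 55.2 and 34.8 in WT, while PKP4-KO had 1.27, 0.436 and 0.568 and Rescue 14.2, 19.4 and 15.5. The 3 genotypes did not overlap at either time, with Rescue between WT and PKP4-KO. The same order held in LCM, with 121, 130 and 121 CPM in WT, while PKP4-KO had 0.282, 1.21 and 1.97 and Rescue 25.03, 22.4 and 16.3 at 24 h. In the 72 h LCM libraries WT had 27.2, 33.99 and 29.7, PKP4-KO 0.427, 0.0839 and 1.2, and Rescue 10.3, 4.86 and 9.499. The 3 genotypes were again apart. The mean of PKP4-KO was thus 0.76% to 1.88% of that of WT. On the log2 scale the difference from WT was -7.03 (SE 0.46, adjusted p = 4.89e-13) at 24 h HCM, -5.94 (SE 0.49, adjusted p = 8.79e-11) at 72 h HCM, -6.67 (SE 0.45, adjusted p = 1.48e-12) at 24 h LCM and -5.57 (SE 0.46, adjusted p = 8.79e-11) at 72 h LCM by edgeR. Sorted by this difference, it took places 46 to 133 from the lowest of the 15114 tested genes. The PKP4-KO values rest on few counts, 23, 22 and 13 at 24 h HCM and 7, 1 and 24 at 72 h LCM, and the spread between these libraries is wide: without 1 library the log2 difference at 72 h LCM lay between -6.74 and -5.17.

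Axl was lower in PKP4-KO throughout, and more so at 72 h. In LCM it had 239, 289 and 268 CPM in WT and 97.6, 122 and 156 in PKP4-KO at 24 h. At 72 h LCM these were 126, 157 and 129 in WT and 24.8, 32.96 and 35.2 in PKP4-KO. The lowest WT library was above the highest PKP4-KO library at both times. In HCM, WT had 286, 261 and 289 CPM and PKP4-KO 102, 128 and 114 at 24 h. The values at 72 h HCM were 162, 194 and 187 in WT and 37.6, 28.1 and 36.7 in PKP4-KO. The log2 fold change was -1.28 (SE 0.15, adjusted p = 5.03e-08) at 24 h HCM, -2.41 (SE 0.16, adjusted p = 7.82e-13) at 72 h HCM, -1.09 (SE 0.15, adjusted p = 1.16e-06) at 24 h LCM and -2.15 (SE 0.16, adjusted p = 5.31e-12) at 72 h LCM.

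Ccn1, the other matricellular target gene, had smaller fold changes. In WT it had 15.3, 18.1 and 17.2 CPM at 24 h LCM and in PKP4-KO 2.75, 7.93 and 9.23. PKP4-KO replicate 1 was far below the others, and the groups were apart. This library had the lowest TMM factor of its group, 0.928, and was the lowest there for each of the tested genes described here. The log2 fold change was -1.33 (SE 0.27, adjusted p = 0.000207) at 24 h LCM and -1.03 (SE 0.28, adjusted p = 0.00322) at 72 h LCM. In HCM it was -0.69 (SE 0.27, adjusted p = 0.0363) at 24 h, a call lost without WT or PKP4-KO replicate 1 or 3, while at 72 h the difference of -0.52 with a 95% interval of -1.09 to 0.06 did not pass (adjusted p = 0.127). It became a call at -0.83 without PKP4-KO replicate 1 and at -1.3 with library sizes in place of TMM factors. The 3 PKP4-KO libraries had 7.49, 4.94 and 3.86 CPM there and the WT libraries 8.62, 7.81 and 6.77, and the groups overlapped.

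Of the coactivators, Wwtr1 had the larger fold changes, though the difference between the 2 genes was not tested. Wwtr1 had 28.2, 25.3 and 18.7 CPM in WT at 72 h HCM and 7.24, 7.56 and 6.59 in PKP4-KO. At 24 h HCM it had 22.4, 12.6 and 14.6 in WT and 7.55, 11.4 and 7.02 in PKP4-KO. In each of the 4 conditions the 2 groups did not overlap. The log2 fold change of Wwtr1 was -0.93 (SE 0.2, adjusted p = 0.000302) at 24 h HCM, -1.76 (SE 0.21, adjusted p = 6.16e-08) at 72 h HCM, -0.71 (SE 0.2, adjusted p = 0.00447) at 24 h LCM and -1.21 (SE 0.2, adjusted p = 1.4e-05) at 72 h LCM. Yap1 was 109 ± 9.299 CPM (SD, n = 3) in WT and 67.6 ± 4.44 in PKP4-KO at 72 h HCM, a log2 fold change of -0.69 (SE 0.13, adjusted p = 5.02e-05). It was also lower at 72 h LCM, with -0.5 (SE 0.13, adjusted p = 0.00183), and at 24 h HCM, with -0.31 (SE 0.12, adjusted p = 0.0476), the latter call being lost without PKP4-KO replicate 1 or 3 or WT replicate 1 or 2. At 24 h LCM its difference of -0.1 had a 95% interval of -0.36 to 0.15 and was not called. Their DNA-binding partner Tead1 was lower at 72 h HCM, with 26.4, 31.9 and 12.3 CPM in WT and 2.92, 3.34 and 3.75 in PKP4-KO. WT replicate 3 stood well below the other WT libraries but above all PKP4-KO libraries. This library had the lowest TMM factor of its group, 0.705. It was also the lowest there for Wwtr1, Amotl2, Ccn1 and Ccn2, but not for Yap1, Lats2, Ajuba or Axl. The log2 fold change of Tead1 was -2.82 (SE 0.37, adjusted p = 3.77e-07) there and between -1.52 and -1.35 in the other conditions, each with the groups apart.

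The regulators split. Lats2, the kinase that phosphorylates YAP and TAZ, was low in all libraries, with 39 to 101 counts in WT, and at 72 h HCM it had 3.19, 4.34 and 3.999 CPM in WT and 1.27, 0.872 and 0.795 in PKP4-KO, from 10, 6 and 7 counts. Its log2 fold change was -1.97 (SE 0.26, adjusted p = 5.86e-07) at 72 h HCM and -1.24 (SE 0.23, adjusted p = 7.75e-05) at 72 h LCM. At 24 h it was -0.55 (SE 0.22, adjusted p = 0.0435) in HCM, a call lost without any 1 of the 6 libraries, and -0.52 (SE 0.22, adjusted p = 0.06) in LCM, which passed only without replicate 3 of either group or with library sizes in place of TMM factors. Amotl2, an angiomotin-like protein that binds YAP at junctions and is itself a target gene, had 37.1, 45.95 and 37.6 CPM in WT and 6.89, 3.86 and 8.05 in PKP4-KO at 72 h LCM. At 24 h LCM these were 62.9, 62.9 and 60.5 and 10.4, 21.8 and 30.2. WT libraries were tight at 24 h LCM, whereas the PKP4-KO libraries were spread and still did not reach them. The log2 fold change of Amotl2 was -2.67 (SE 0.31, adjusted p = 4.83e-08) at 72 h LCM, -1.57 (SE 0.29, adjusted p = 7.58e-05) at 24 h LCM, -2.38 (SE 0.31, adjusted p = 2.69e-07) at 72 h HCM and -1.11 (SE 0.29, adjusted p = 0.00232) at 24 h HCM.

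Ajuba, a LIM protein of adherens junctions that binds LATS kinases, was called in both directions. It was higher in PKP4-KO at 24 h HCM, with 157, 178 and 132 CPM against 118, 94.3 and 129.7 in WT, and lower at 72 h HCM, with 63.8, 50.01 and 61.3 against 79.7, 102 and 80.7. The groups were apart both times, and the log2 fold change was 0.45 (SE 0.15, adjusted p = 0.0201) at 24 h and -0.58 (SE 0.16, adjusted p = 0.00261) at 72 h. The call at 24 h was lost without PKP4-KO replicate 1 or 2 or WT replicate 2. In LCM it was 0.11 at 24 h (95% interval -0.2 to 0.43) and -0.13 at 72 h (-0.44 to 0.19), neither called. Beside these differences, Krt10, a keratin of differentiating cells like Krt1, ranged from 22.0 to 4705 CPM in PKP4-KO libraries and from 8.35 to 603.7 in WT, Ivl from 3.03 to 23.9 against 24.6 to 154 and Lor from 1.55 to 43.95 against 5.29 to 249, and the part of the differentiation markers in these differences was not tested.

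**Figure D2:**
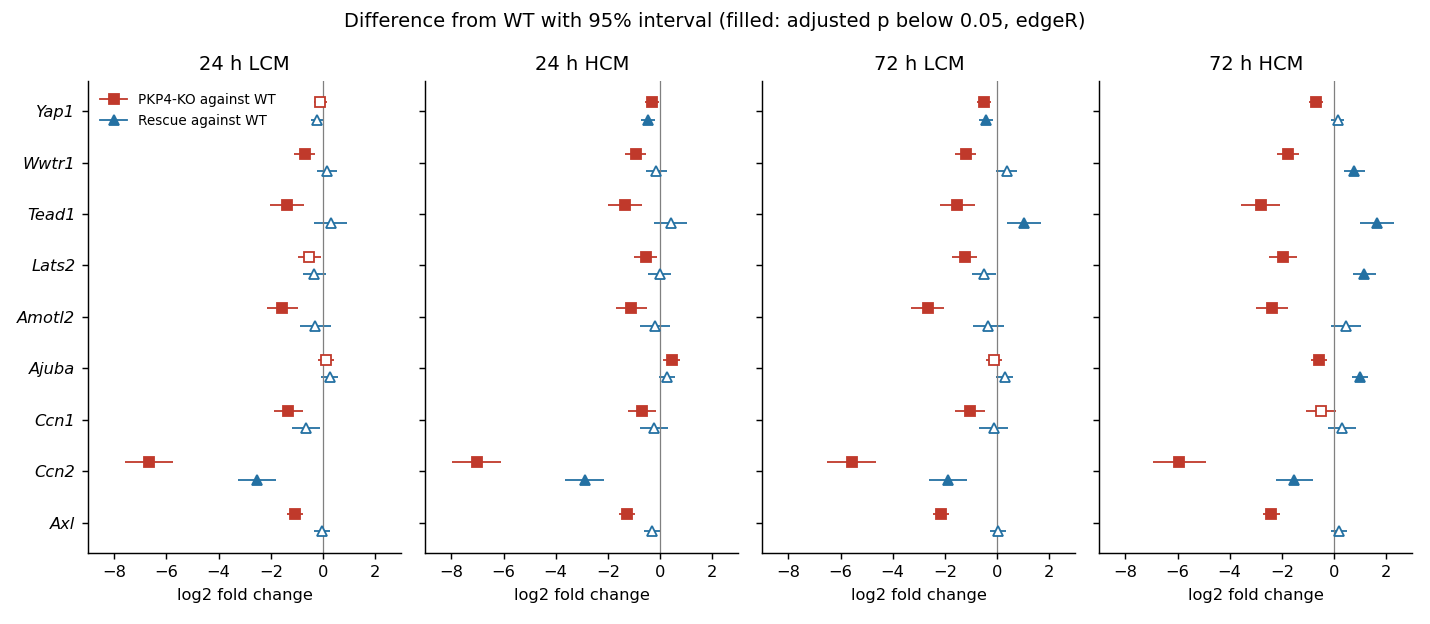
Log2 fold change against WT with its 95% interval (x axis) for the 9 tested genes in each culture condition, with red squares for PKP4-KO and blue triangles for Rescue, filled where edgeR's adjusted p is below 0.05. Ccn2 lies far to the left in PKP4-KO, at -5.57 or lower in each condition, and remains left of 0 in Rescue, while most other Rescue values lie near 0 except at 72 h HCM.

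The Rescue cells test whether the levels return with GFP-PKP4. Against PKP4-KO, 5 of the 9 genes were higher at 24 h HCM (40.8% of all genes were called and 21.7% were higher) and 9 at 72 h HCM (66.7% and 37.2%). In LCM 5 were higher at 24 h (33.7% called and 18.2% higher) and 8 at 72 h (41.5% and 23.3%), and no gene was called lower in any of the 4 comparisons. Yap1 at 24 h LCM had 117, 123.6 and 124.6 CPM in Rescue, below the 128.8, 136.5 and 131 in PKP4-KO, but was not called. Higher in all 4 conditions were Wwtr1, Tead1, Amotl2, Ccn2 and Axl, which held for 9.08% of all tested genes. This comparison and that of PKP4-KO with WT share the PKP4-KO libraries, so that a chance low value there would enter both, and the comparison of Rescue with WT, which does not use them, is given beside it. Against WT, 2 of the 9 genes were called at 24 h HCM (23.2% of all genes), 5 at 72 h HCM (36.2%, with 19.5% higher), 1 at 24 h LCM (24.8%) and 3 at 72 h LCM (32.4%), which is near the share of all genes or below it except at 72 h HCM.

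Axl in Rescue had 254, 259 and 255 CPM at 24 h LCM and 159.5, 129 and 135 at 72 h LCM, within or near the range of WT. Its log2 fold change against WT was -0.05 (95% interval -0.36 to 0.25) and 0.04 (-0.26 to 0.35). In HCM Rescue had 229, 223 and 225 CPM at 24 h and 209, 217 and 193 at 72 h, and the differences from WT of -0.31 (-0.61 to -0.002) and 0.19 (-0.12 to 0.49) were not called, although at 24 h every Rescue library was below every WT library. The mean of Rescue was 80.9% to 113.8% of that of WT over the 4 conditions. Amotl2 was likewise not called against WT, with log2 differences of -0.19, -0.29 and -0.33 at 24 h HCM and at both times in LCM, and of 0.46 at 72 h HCM. Its intervals reached from -0.91 at 72 h LCM to 1.03 at 72 h HCM. Ccn1 in Rescue was not called against WT in any condition, its largest difference being -0.66 (SE 0.26, adjusted p = 0.0662) at 24 h LCM, which passed by DESeq2 and 2 other settings.

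Ccn2 stayed below WT in Rescue. Against PKP4-KO it was higher, at 4.14 (SE 0.43, adjusted p = 4.66e-09) on the log2 scale at 24 h HCM, 4.41 (SE 0.49, adjusted p = 1.62e-08) at 72 h HCM, 4.13 (SE 0.42, adjusted p = 5.87e-09) at 24 h LCM and 3.7 (SE 0.45, adjusted p = 1.51e-07) at 72 h LCM. Against WT it was -2.9 (SE 0.36, adjusted p = 6.7e-07), -1.53 (SE 0.35, adjusted p = 0.00119), -2.54 (SE 0.36, adjusted p = 3.67e-06) and -1.87 (SE 0.36, adjusted p = 0.00014) in the same order. In HCM its mean in Rescue was 13.4% of WT at 24 h and 34.7% at 72 h, and in LCM 17.1% and 27.1%. It was the only one of the 9 genes that was lower than WT in all 4 conditions, which 3.21% of all genes were.

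At 72 h HCM, Rescue went above WT for 4 genes, namely the coactivator Wwtr1, its partner Tead1 and the regulators Lats2 and Ajuba. Tead1 had 72.7, 76.4 and 72.02 CPM in Rescue there, against 26.4, 31.9 and 12.3 in WT. Lats2 had 7.41, 10.2 and 8.13 against 3.19, 4.34 and 3.999, and Wwtr1 44.8, 40.8 and 37.8 against 28.2, 25.3 and 18.7. Every Rescue library was above every WT library for these genes, for Ajuba (182, 187 and 151 against 79.7, 102 and 80.7) and also for Amotl2, which was not called (28.6% of all genes were separated in this direction). The log2 fold change against WT was 1.64 (SE 0.32, adjusted p = 0.000227) for Tead1, 1.16 (SE 0.22, adjusted p = 0.000162) for Lats2, 0.98 (SE 0.15, adjusted p = 1.59e-05) for Ajuba and 0.77 (SE 0.19, adjusted p = 0.0025) for Wwtr1. Tead1 was above WT at 72 h LCM too, with 1.04 (SE 0.32, adjusted p = 0.0118), although Rescue replicate 2 with 29.0 CPM came close to WT replicate 2 with 27.7 and the call was lost without Rescue replicate 1 or WT replicate 1 or 3. Yap1 did not follow and was lower than WT at 24 h HCM, with -0.47 (SE 0.13, adjusted p = 0.00625), and at 72 h LCM, with -0.43 (SE 0.12, adjusted p = 0.00867), a call lost without replicate 2 of either group.

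Because scaling weighs on the PKP4-KO libraries at 72 h HCM, Ccn2 was also set against Yap1 within each library, which needs no scaling. Per 100 counts of Yap1, the WT libraries had 99.9, 62.2 and 127 counts of Ccn2 at 24 h and 50.5, 46.1 and 32.8 at 72 h in HCM, and 81.97, 91.95 and 88.4 and 20.6, 21.5 and 21.4 in LCM. PKP4-KO had 1.09, 0.767 and 0.8598 at 24 h HCM and 1.95, 0.673 and 0.781 after 72 h, and in LCM 0.219, 0.883 and 1.501 and 0.5201, 0.0776 and 1.06. Rescue cells in HCM had 16.1, 17.3 and 19.9 at 24 h and 11.3, 15.3 and 14.3 at 72 h, and those in LCM had 21.4, 18.1 and 13.1 and then 8.02, 5.37 and 9.54. All 12 PKP4-KO libraries, with at most 1.95, were below all 12 Rescue libraries, with at least 5.37, and within each condition every Rescue library was below every WT library. The ratio shows an unequal change of the 2 genes, not that Yap1 did not change. For Axl, WT had 93.2 to 232 counts per 100 of Yap1, PKP4-KO 30.2 to 119 and Rescue 124 to 247, and for Tead1 these were 11.6 to 34.96, 4.48 to 18.3 and 27.2 to 66.6.

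**Figure D3:**
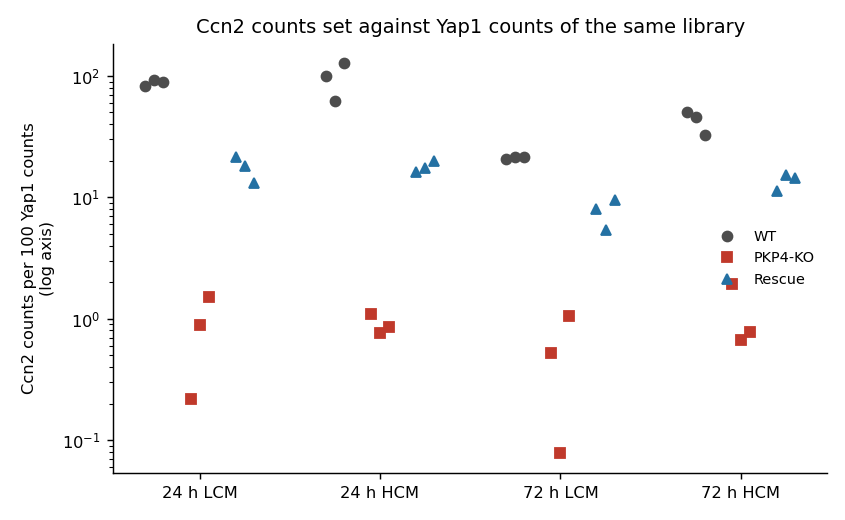
Counts of Ccn2 per 100 counts of Yap1 (log axis) in each of the 36 libraries, by time and medium, with grey circles for WT, red squares for PKP4-KO and blue triangles for Rescue. The 3 genotypes form 3 separate bands in every condition, with Rescue between WT and PKP4-KO.

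The comparison of 72 h with 24 h asks how the genes change with time in culture, which may include a change in cell density (LD and HD in the labels). In WT, Ccn2 and Axl fell in both media, Ccn2 with -1.46 (SE 0.34, adjusted p = 0.00346) in HCM and -2.03 (SE 0.35, adjusted p = 0.000245) in LCM on the log2 scale, and Axl with -0.62 (SE 0.15, adjusted p = 0.00385) and -0.95 (SE 0.15, adjusted p = 8.25e-05). Ccn1 was not called in HCM, where its change was -0.51, but fell in LCM, from 16.9 ± 1.46 to 7.53 ± 0.883 CPM (SD, n = 3), with -1.16 (SE 0.27, adjusted p = 0.00406), and so did Tead1, with -0.98 (SE 0.32, adjusted p = 0.0441), a call that only leaving out WT replicate 2 at 72 h kept. Wwtr1 rose in HCM with 0.54 (SE 0.19, adjusted p = 0.0491), which was lost without replicate 1 or 2 at 72 h or replicate 2 or 3 at 24 h, while Yap1, Lats2, Amotl2 and Ajuba were called in neither medium. In all, 3 of the 9 genes were called in HCM, against 17.8% of all genes, and 4 in LCM, against 9.96%.

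In PKP4-KO more of the genes were called with time than in WT, but so were more of all genes. In HCM 6 of the 9 genes (66.7%) were called, all lower at 72 h, beside 55.8% of all genes in either direction. In LCM 8 (88.9%) were called, all lower, beside 26.1% of all genes. Of all called genes, 43.6% were higher in HCM and 47.6% in LCM. Neither set of lower genes held Ccn2, which was already near 1 CPM at 24 h. Axl fell from 115 ± 12.9 to 34.1 ± 5.26 CPM in HCM and from 125 ± 29.2 to 31.01 ± 5.49 in LCM. The log2 fold changes were -1.75 (SE 0.15, adjusted p = 2.57e-10) and -2.01 (SE 0.15, adjusted p = 6.46e-11). The count of 8 in LCM dropped to 5 without replicate 1 or 2 at 72 h, to 4 without replicate 2 at 24 h and to 2 without replicate 3 at 24 h. With library sizes in place of TMM factors the median of all genes moved to -1.16 between 72 h and 24 h in HCM, as against -0.095, so that values of that comparison are relative to the scaling. In Rescue, 2 of the 9 genes (22.2%) were called with time in each medium. Wwtr1 and Lats2 were higher at 72 h in HCM, with 1.46 (SE 0.19, adjusted p = 1.92e-06) and 0.82 (SE 0.22, adjusted p = 0.00553), and Axl and Ccn2 were lower in LCM, with -0.86 (SE 0.15, adjusted p = 0.000138) and -1.36 (SE 0.35, adjusted p = 0.0103). The call of Lats2 was lost without replicate 2 at 72 h, and that of Ccn2 without replicate 2 at 72 h or replicate 1 at 24 h. The shares of all genes called were 24.3% and 9.81%.

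Whether the change with time differed from WT was tested as a difference of the log2 changes. In HCM it was more negative in PKP4-KO than in WT for 6 of the 9 genes. Of all genes, 26.6% were called in either direction, 40.5% of them more positive. The difference was -1.13 (SE 0.21, adjusted p = 0.000192) for Axl and -1.03 (SE 0.22, adjusted p = 0.000746) for Ajuba. Tead1, Lats2, Amotl2 and Wwtr1 had differences between -1.48 and -0.83. This count fell to 3 without replicate 2 of PKP4-KO or of WT at 24 h, or WT replicate 1 or 2 at 72 h. In LCM only Axl was called, with -1.06 (SE 0.21, adjusted p = 0.00188) (5.25% of all genes). For Rescue in HCM the difference from WT was positive and called for 4 genes, Yap1, Wwtr1, Lats2 and Ajuba, between 0.61 for Yap1 and 1.18 for Lats2. Of all genes, 10.5% were called in either direction, 54.5% of them positive. Leaving out single libraries brought the count of 4 to between 0, without Rescue replicate 2 at 72 h, and 6. In LCM none was called for Rescue, none had an unadjusted p below 0.05, and DESeq2 called 0 (3.91% of all genes).

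**Figure D4:**
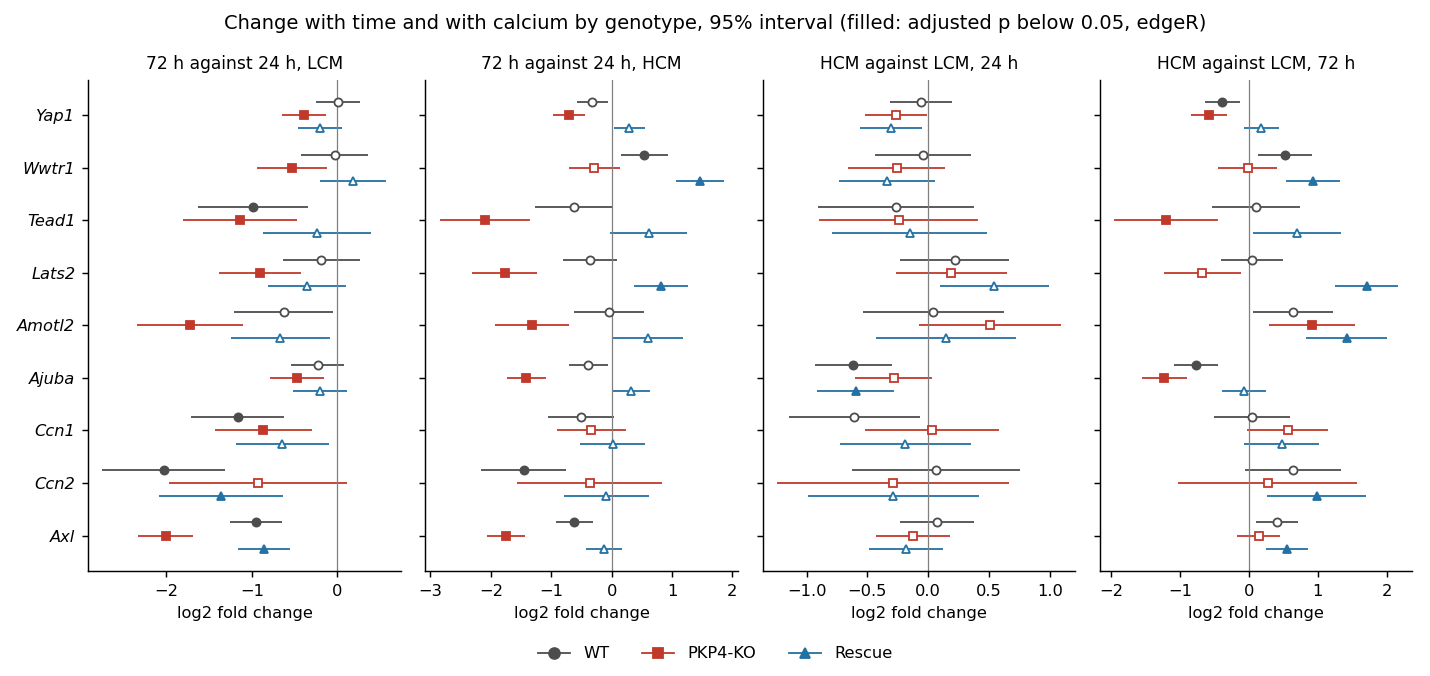
Log2 fold change with its 95% interval (x axis) of the 9 tested genes between 72 h and 24 h and between HCM and LCM, with grey circles for WT, red squares for PKP4-KO and blue triangles for Rescue, filled where edgeR's adjusted p is below 0.05. In HCM the change with time of Lats2, Tead1 and Ajuba lies left of WT in PKP4-KO and right of it in Rescue, and at 24 h few of the changes with calcium are filled.

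The comparison of HCM with LCM asks about calcium, which lets cadherin junctions form and starts differentiation. At 24 h, 1 of the 9 genes (11.1%) was called in WT and 1 in Rescue. Ajuba was lower in HCM in WT, from 167, 171 and 187 to 118, 94.3 and 129.7 CPM, with -0.62 (SE 0.15, adjusted p = 0.00567), and in Rescue, with -0.6 (SE 0.15, adjusted p = 0.00874), calls that were lost without WT replicate 2 and Rescue replicate 3 in HCM. No other gene was called in either, where 14.2% and 12% of all genes were. In PKP4-KO none of the 9 genes was called by edgeR at 24 h, 1 (Yap1) had an unadjusted p below 0.05, DESeq2 called 0, and 2.83% of all genes were called. Ajuba was -0.28 there, with an interval of -0.6 to 0.03, and no gene's change with calcium at 24 h differed from that in WT by the test of the difference, in PKP4-KO or in Rescue (0 with an unadjusted p below 0.05 and 0 by DESeq2 in both, beside 4.02% and 0.0662% of all genes).

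At 72 h, Ajuba was lower in HCM in WT, with -0.77 (SE 0.15, adjusted p = 0.00048), and in PKP4-KO, with -1.23 (SE 0.16, adjusted p = 8.41e-07), but not in Rescue, where it was -0.07 (95% interval -0.39 to 0.24). The difference between Rescue and WT was 0.7 (SE 0.22, adjusted p = 0.0291). Yap1 was lower in HCM in WT, with -0.39 (SE 0.12, adjusted p = 0.0251), and in PKP4-KO, with -0.58 (SE 0.13, adjusted p = 0.000808), and was 0.18 in Rescue, which differed from WT with 0.57 (SE 0.18, adjusted p = 0.0291). In WT Wwtr1 was called too, higher, at 0.53 (SE 0.19, adjusted p = 0.0493), which made 3 of the 9 genes, and 21.4% of all genes were called. PKP4-KO had 4 called genes (32.6% of all genes), with Tead1 lower, at -1.2 (SE 0.37, adjusted p = 0.0136) and Amotl2 higher, at 0.91 (SE 0.31, adjusted p = 0.0233), and 2 called genes without PKP4-KO replicate 1 in HCM, whose omission cost both of these calls. The call of Amotl2 was also lost without PKP4-KO replicate 2 in LCM. With library sizes in place of TMM factors Amotl2 was at 0.193 and not called. That fit moved the median of all genes in this comparison from -0.077 to -0.768. The WT calls of Yap1 and Wwtr1 were lost without replicate 1 or 3 in HCM or replicate 2 in LCM for Yap1, and without any library but replicate 3 in HCM for Wwtr1. No gene's change differed between PKP4-KO and WT at 72 h by edgeR, with 3 at an unadjusted p below 0.05 and 0 by DESeq2 (5.74% of all genes).

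In Rescue, 5 of the genes were higher in HCM at 72 h. Wwtr1, Lats2, Amotl2, Ccn2 and Axl were called higher and none lower, with 24.9% of all genes called, 52% of them higher. Lats2 had 2.82, 1.84 and 3.15 CPM in LCM and 7.41, 10.2 and 8.13 in HCM, a log2 change of 1.71 (SE 0.22, adjusted p = 1.37e-06). Amotl2 had 39.7, 19.96 and 35.95 and 94.4, 88.6 and 73.6 CPM, a change of 1.42 (SE 0.29, adjusted p = 0.000494). Replicate 2 in LCM was the lowest for both genes and for each of the other tested genes described here, and had the lowest TMM factor of its group, 0.881. For Lats2 the change differed from that in WT, with 1.67 (SE 0.31, adjusted p = 0.000474), which with Ajuba and Yap1 made 3 of the 9 genes (14.6% of all genes). That count was 1 without Rescue replicate 1 or 2 or WT replicate 1 or 3 in HCM, or replicate 2 of either in LCM. For Amotl2, Ccn2, Wwtr1 and Axl a difference from WT was not called. Within Rescue, the calcium change at 72 h was above that at 24 h for Wwtr1, Lats2, Amotl2 and Axl (12.5% of all genes called, 50.5% of them above), and the count was 2 without Rescue replicate 2 at 72 h in either medium. Within PKP4-KO it was below that at 24 h for Ajuba (11% of all genes called, 40.3% of them above). In WT none was called, with 1 at an unadjusted p below 0.05 and 0 by DESeq2 (4.35% of all genes).

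Ankrd1, a muscle ankyrin repeat protein and a widely used target gene, was almost silent in these cells. No count was found in 9 of 12 WT, 12 of 12 PKP4-KO and 7 of 12 Rescue libraries. WT libraries at 72 h HCM had 2, 0 and 2 counts, and all 12 PKP4-KO libraries had 0, which with 3 counts as the limit allows up to 0.44 CPM in the library with the highest floor. Rescue libraries at 72 h HCM had 5, 11 and 3 counts, or 0.232, 0.428 and 0.143 CPM. The row did not pass the filter on low counts, so that no fold change or test is given.

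The other genes of the pathway, 34 genes from the upstream kinases to TEAD factors, gave 31 that could be tested. Against WT, PKP4-KO had 12 of them lower and 2 higher at 24 h HCM and 20 and 3 at 72 h, and in LCM 14 and 19 lower with 0 higher at both times. The shares called, 45.2%, 74.2%, 45.2% and 61.3%, stand beside the shares of all genes given above, and the median log2 fold change of the list was -0.38, -0.86, -0.39 and -0.67. Among those lower in all 4 conditions were Stk3 (MST2), the kinase that activates LATS, and Mob1b, a LATS cofactor. Stk3 had log2 fold changes of -1.28 at 24 h HCM (adjusted p = 0.00118) and -1.8 at 72 h HCM (8.15e-05), and Mob1b -1.05 (0.00381) and -1.78 (2.27e-05). Vgll3, a TEAD cofactor, and Amot, the angiomotin after which Amotl2 is named, were lower too, Vgll3 with -2.12 at 72 h LCM (adjusted p = 5.86e-07), but Amot had at most 78 counts in any library and its fold changes are left out. Tjp1 (ZO-1), a scaffold of tight junctions, had the largest mean change after Amot, with -2.72 at 24 h HCM (adjusted p = 3.61e-09) and -1.75 to -2.01 in the other conditions.

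In Rescue, the pathway list had 7 genes called against WT at 24 h in HCM and 12 at 72 h, and 6 and 14 in LCM. These were 22.6%, 38.7%, 19.4% and 45.2% of its 31 tested genes, beside 23.2%, 36.2%, 24.8% and 32.4% of all genes. At 72 h HCM 11 of the 12 were higher than WT, and the median of the list was 0.49 beside 0.06 for all genes. Higher and lower genes were 3 and 4 at 24 h HCM, and in LCM 4 and 2, then 7 and 7. Tead2, another TEAD gene, and Map4k4 and Csnk1e were called above WT in all 4 conditions, Tead2 by 1.84 to 3.26. Taok3 was called below WT in all but 72 h HCM. Tjp1, Stk3 and Vgll3 were named for their change in PKP4-KO. Tjp1, which was low in PKP4-KO, was -0.32 against WT in Rescue at 24 h HCM (adjusted p = 0.428), and Stk3 was -0.27 (0.591). Vgll3 was 1.11 at 72 h HCM (0.00206) and -0.86 at 72 h LCM (0.0139), so that it stood above WT in one medium and below it in the other.

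The other target genes did not move as one. Of 18 further genes listed as YAP/TAZ targets, 16 were tested, and against WT 8 of these were lower in PKP4-KO and 5 higher at 24 h in HCM and 9 and 4 at 72 h, with 7 and 5 and then 9 and 4 in LCM. Called in either direction were 81.3% and 81.3% of the 16 in HCM and 75% and 81.3% in LCM, beside 42.8%, 51.8%, 40.2% and 45.1% of all genes. The list was chosen with results of these data known. The median log2 fold change of the list was -0.52, -0.68, -0.50 and -0.92. Lower in all 4 conditions were Asap1, an Arf GTPase-activating protein, with -2.5 at 24 h HCM (adjusted p = 8.57e-09), and the RNA-binding protein gene Rbms3, with -2.92 at 72 h HCM (1.22e-08). F3, tissue factor, was lower in all 4 as well, but unevenly, with -4.25 at 24 h HCM (adjusted p = 7.83e-15) and -0.6 at 72 h HCM (0.0139). The transcription factor gene Foxf2 was higher in all 4, by 1.52 to 2.25 on the log2 scale, at no more than 123 counts in any library. Areg, the EGF family ligand amphiregulin, changed sign, with -1.75 at 24 h HCM (adjusted p = 1.15e-05) and 4.47 at 72 h LCM (3.62e-12). Rescue had 7 and 9 of the 16 genes called against WT at 24 h and 72 h HCM. In LCM it had 4 and 11. Higher than WT were 4 and 8 of these in HCM, and 2 and 6 in LCM. The shares called were 43.8%, 56.3%, 25% and 68.8%, beside 23.2%, 36.2%, 24.8% and 32.4% of all genes.

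**Figure D5:**
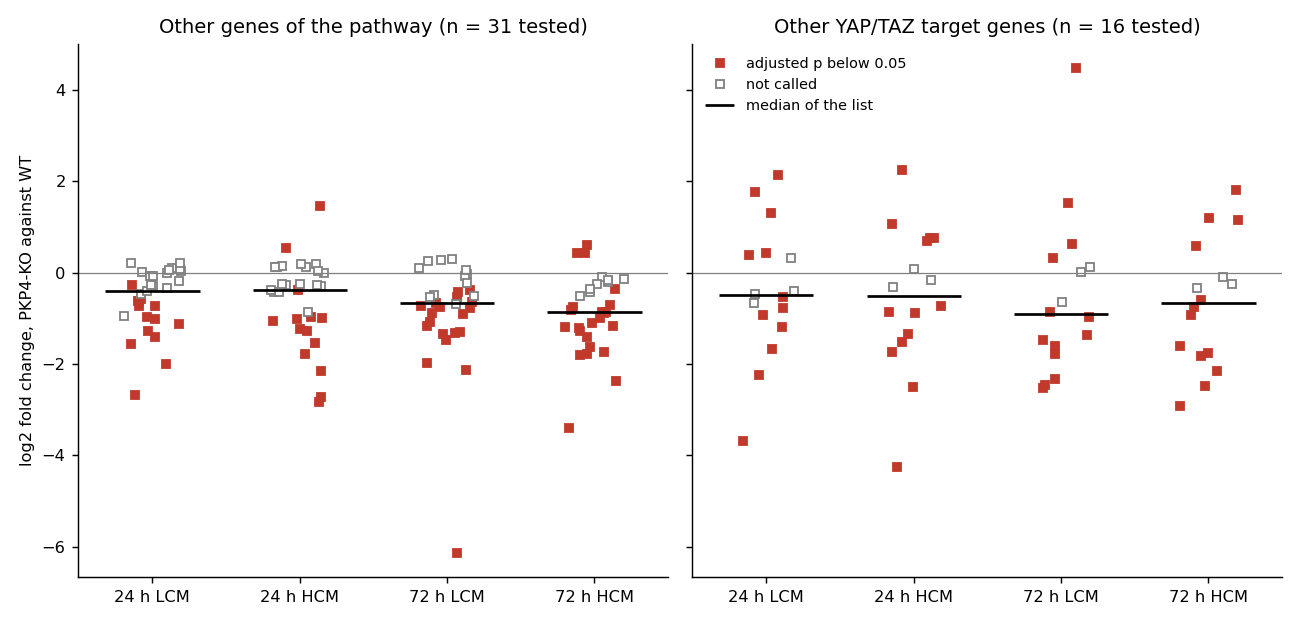
Log2 fold change of PKP4-KO against WT (y axis) for the 31 tested other genes of the pathway and the 16 tested other target genes in each culture condition, with filled red squares for an adjusted p below 0.05 by edgeR, open grey squares for the rest and a black line at the median. The pathway genes lie mostly below 0, while the target genes spread to both sides of it.

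The genes whose group means were most like those of Ccn2 were Col4a1 (Pearson's r = 0.991) and Col4a2 (0.988), the chains of type IV collagen of basement membranes, then Prdx4 (0.976), Zfp809 (0.974) and Syt16 (0.969). The measure was the correlation of log2(CPM + 1) over the 12 group means among 12211 genes whose mean level reached 1 CPM, and the points share their libraries and the scaling. Col4a1 had a mean of 10.4 CPM in WT, against 0.15 in PKP4-KO and 3.35 in Rescue, and Col4a2 had 28.9, 0.17 and 6.14. For Ccn1 the most alike were Atm (0.944), Mbtps2 (0.919), Six4 (0.917), Nxpe3 (0.913) and Pla2g7 (0.912). Among the 9 genes themselves, Amotl2 and Axl were most alike (r = 0.934 over 12 group means) and Ajuba and Ccn2 least (0.112).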

How the data were processed

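Poly(A) RNA of 36 keratinocyte libraries, 3 in each of 12 groups as labelled, was sequenced as strand-specific pairs. The authors deposited 1 table of raw counts per gene, which per the labels and methods were made with HISAT2 2.1.0, SAMtools 1.10 and featureCounts 2.0.0 on GRCm39; the strand setting of the counting is not given in the sources used here. From these counts, low genes were removed with filterByExpr over the 12 groups, TMM factors were computed, and 1 model with a mean for each group (24 residual degrees of freedom) was fitted to all 15114 remaining genes with edgeR 4.0.16 in R 4.3.3. Contrasts were tested with the quasi-likelihood test, two-sided, and p-values were adjusted by Benjamini-Hochberg over all tested genes, with a threshold of 0.05.

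The members and the lists of other genes were chosen with earlier results of these data known. From each list, the at most 5 genes with the largest mean absolute log2 fold change among those called in the same direction in at least 3 of the 4 comparisons of PKP4-KO with WT were named, and for Ccn1 and Ccn2 the 5 tested genes, other than the 10 described, with the highest Pearson's r over the group means. Tead2, Map4k4, Csnk1e and Taok3 were named in addition, for their differences from WT in Rescue. The alternatives were DESeq2 1.42.0, a replicate block, a fit of only the groups compared, library sizes in place of TMM factors, either no filter or one that asks for 10 counts in each library, and leaving out each library in turn. Promoters came from RefSeq (GRCm38.p6) and gene positions from the annotation of GRCm39.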

Additional observations from a re-analysis of the deposited data

Results flagged for a closer look

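The test of the difference between 2 changes passed the threshold for 19 of the values above, by edgeR over all tested genes, and each has the same test behind it.

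Between PKP4-KO and WT, the log2 change from 24 h to 72 h in HCM differed by -0.83 for Wwtr1 (adjusted p = 0.0283), -1.48 for Tead1 (0.0229), -1.41 for Lats2 (0.00275), -1.28 for Amotl2 (0.0206), -1.03 for Ajuba (0.000746) and -1.13 for Axl (0.000192). In LCM it differed by -1.06 for Axl (0.00188). TMM factors of the PKP4-KO libraries at 72 h HCM were 0.48 to 0.55, the lowest of all groups. In the fit with library sizes 7 of the 9 genes differed in HCM. That fit also moved the median difference of all genes in HCM from -0.075 to -0.898, so that its count does not test the scaling. The part of the scaling in these values was not tested.

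Between Rescue and WT, the change with time in HCM differed by 0.61 for Yap1 (0.0263), 0.91 for Wwtr1 (0.0298), 1.18 for Lats2 (0.0138) and 0.71 for Ajuba (0.0352). At 72 h the change with calcium differed by 0.57 for Yap1 (0.0291), 1.67 for Lats2 (0.000474) and 0.7 for Ajuba (0.0291).

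Between 72 h and 24 h, the change with calcium in Rescue differed by 1.27 for Wwtr1 (0.00174), 1.17 for Lats2 (0.0107), 1.27 for Amotl2 (0.0334) and 0.73 for Axl (0.0196). In PKP4-KO it differed by -0.94 for Ajuba (0.00554).

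Ankrd1 entered no test, but its 11 counts in a Rescue library at 72 h HCM were above the 0 to 2 counts of the WT libraries.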

How the results depend on the processing

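No direction of a called value was reversed by any alternative. Of the 35 counts of called genes, the replicate block changed none by more than 1.5 times, DESeq2 1, the filter of at least 10 counts in every library 4, library sizes 7, no filter 9 and a fit of only the compared groups 10. Replicate numbers showed no consistent pairing of the samples, since correlations of the deviations of same-numbered libraries ranged from -0.806 to 0.791 and were above 0.1 in every pair in only 3 of 24 comparisons, whose counts of 5, 8 and 1 the block left as they were. These correlations cannot show whether a shared number marks a shared isolation. With the replicate block, 7 genes instead of 9 were called between PKP4-KO and WT at 24 h HCM.

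With library sizes in place of TMM factors, 5 genes were called for PKP4-KO against WT at 24 h HCM (9 in the report), 1 for Rescue against WT at 24 h HCM (2), 1 at 72 h LCM (3), 0 for calcium in Rescue at 24 h (1), 2 for the time difference of Rescue and WT in HCM (4), 4 for the calcium difference between times in PKP4-KO (1) and 2 in Rescue (4). With library sizes the median log2 fold change of all genes moved from -0.072 to -0.833 for PKP4-KO against WT at 72 h HCM, where 13.5% instead of 42.2% of the called genes were higher, and from 0.200 to 1.371 for Rescue against PKP4-KO, where 84.7% instead of 55.8% were.

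Without a filter the counts were 5 for PKP4-KO against WT and 1 for Rescue against WT at 24 h HCM, 1 for calcium in WT at 72 h (3) and 0 in Rescue at 24 h (1), 5 for time in PKP4-KO LCM (8), 1 in Rescue HCM (2), 1 for the calcium difference of Rescue and WT at 72 h (3), 0 for their time difference in HCM (4) and 2 for the calcium difference between times in Rescue (4). With at least 10 counts in every library, which left 7 of the 9 genes without Lats2 and Ccn2, they were 1 and 3 for Rescue against WT at 24 h and 72 h HCM (2 and 5), 3 for calcium in Rescue at 72 h (5) and 1 for time in Rescue LCM (2). The genes missing from these counts were only Lats2 and Ccn2, which were no longer tested.

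With only the compared groups they were 2 for Rescue against WT at 24 h LCM (1; also 2 by DESeq2), 2 and 1 for calcium in WT at 24 h and 72 h (1 and 3), 1 for time in WT HCM (3), 2 in PKP4-KO LCM (8), 5 and 1 in Rescue HCM and LCM (2 each), 0 for the time difference of PKP4-KO and WT in LCM (1), and 1 and 2 for the calcium difference at 72 h and the time difference in HCM of Rescue and WT (3 and 4). The cause was not tested.

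Leaving out single libraries gave 5 to 7 for PKP4-KO against WT at 24 h HCM, 0 to 1 for calcium in WT and in Rescue at 24 h, 2 to 4 in PKP4-KO at 72 h, 2 to 9 for time in PKP4-KO LCM, 1 to 2 in Rescue HCM (lowest without replicate 2 at 72 h) and LCM (without replicate 2 at 72 h or 1 at 24 h). For differences from WT it gave 0 to 1 for calcium in PKP4-KO at 72 h (highest without WT replicate 3 in HCM), 3 to 6 and 1 to 2 for time in PKP4-KO HCM and LCM (2 without PKP4-KO replicate 1 at 24 h), 1 to 3 for calcium in Rescue at 72 h and 0 to 6 for time in Rescue HCM, where any of 8 libraries brought it to 2 or fewer: Rescue replicates 1 and 2 and WT replicates 1 and 3 at 72 h, and the 3 Rescue libraries and WT replicate 1 at 24 h. For the calcium difference between times in Rescue it gave 2 to 5. For the calls of PKP4-KO against WT at 72 h HCM and at 24 h and 72 h LCM it gave 8 to 9, 6 to 7 and 8. Of the called values of single genes, 18 of 127 were lost with library sizes, 27 without a filter, 24 with only the compared groups, 4 with the block, 2 with DESeq2 and 1 of 97 with 10 counts, and 141 of 876 on leaving out a library. Depth limits Ankrd1, Lats2 and, in PKP4-KO, Ccn2.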

Other observations

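The genes near Ccn2 were compared as a description of its place in the genome, with no test. Within 1 Mb on each side, 10 other tested genes had a median log2 fold change of PKP4-KO against WT of -0.66 at 24 h HCM, with single genes from -7.49 to 7.91, while Ccn2 was at -7.03. Over all 9 tested genes and 4 conditions, the median of such neighbours ran from -1.05 near Tead1 at 72 h HCM, where all 9 neighbours were below 0 and Tead1 was at -2.82, to 0.83 near Amotl2 at 72 h LCM, where Amotl2 was at -2.67. Near Axl, 36 tested genes had medians between -0.37 and 0.05.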
